A study of Rattus norvegicus with 91 samples.

Results

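The genes described here encode glutathione and antioxidant enzymes, measured in the ventral tegmental area of rats from lines bred for high or low alcohol consumption. Members were all probe sets that the platform annotation assigns to exactly 1 gene symbol from a list of 42 genes. Of these genes, 41 had such a probe set, giving 48 of the 31099 probe sets on the array. Prdx1, a cytosolic peroxiredoxin, was named only on a probe set that lists several symbols and has no value here.

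One Affymetrix array was run per animal for 91 rats of 10 lines in 5 pairs, and each comparison is the high-consumption line minus the low-consumption line of a pair. The pairs were HAD1 (8 arrays) and LAD1 (10), HAD2 (8) and LAD2 (9), P (9) and NP (10), AA (10) and ANA (10), and sP (8) and sNP (9). The labels name no treatment, and they give neither age nor sex. Each side of a pair is 1 line, so a difference between lines and an effect of selection for drinking cannot be told apart.

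Values are log2 signals, so a difference of 1 is a doubling. The distributions of the arrays fell into 5 sets, and levels are therefore set side by side only within a pair. The Gapdh control signal at the 3' end exceeded that at the 5' end by a mean of 1.89 in HAD1 and 1.78 in LAD1. This excess was 3.42 in HAD2 and 3.58 in LAD2, and 0.14 to 0.57 on arrays labelled with the other lines. The part it plays where differences are compared between pairs was not tested. HAD1 with LAD1 (18 arrays) and HAD2 with LAD2 (17 arrays) each formed a set of their own. The other 56 arrays formed sets of 20, 17 and 19, whereas their labels give 19 for P and NP, 20 for AA and ANA and 17 for sP and sNP. Of the 20 arrays labelled AA or ANA, 3 lay outside the set that held the rest. In the order of the deposited columns these sets were unbroken runs, P 1 to AA 1, ANA 2 to ANA 18 and AA 19 to sNP 9. Their sizes are those of the labelled pairs in another order, as they would be if labels and values were shifted against each other. Whether the labels of these 56 arrays belong to their values was not tested, and results for them are given for arrays as labelled. If they do not, the comparisons of these pairs do not contrast the named lines. Besides those 3, LAD1 37, P 10 and NP 8 were also counted as standing apart, by choice and not by a rule. Th, a marker of dopamine neurons, was low on P 10 (9.12) and NP 8 (8.23). LAD1 37 had a median signal (7.84) and a Th signal (14.18) within the ranges of its line. The mean level of markers of dopamine neurons, the cells that define this region, was 8.02 to 12.60 on arrays labelled P and 8.99 to 12.48 on arrays labelled NP, and at least 11.57 on all arrays of the other lines. In such bulk tissue, fewer cells of a type and less RNA per cell cannot be told apart.

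Glutathione is a small thiol that glutathione transferases attach to reactive compounds and that glutathione peroxidases use to reduce peroxides. Peroxiredoxins and thioredoxins form a parallel system, and superoxide dismutases turn superoxide into peroxide. Many of these genes are controlled by the transcription factor Nrf2 (Nfe2l2), which Keap1 holds back and which binds antioxidant response elements. Dopamine neurons are known for a high oxidative load from dopamine metabolism.

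Promoters are shown for Gsta4, the member with the widest difference between lines, and for Gstm5, a transferase called in 1 pair. The windows run from 250 bases before to 50 after the start, come from RefSeq on GRCr8, and lie on the plus strand at chr8:87947015-87947314 for Gsta4 and chr2:198219519-198219818 for Gstm5. Capitals mark matches to the core of the antioxidant response element, TGACNNNGC, searched on both strands.
Gsta4: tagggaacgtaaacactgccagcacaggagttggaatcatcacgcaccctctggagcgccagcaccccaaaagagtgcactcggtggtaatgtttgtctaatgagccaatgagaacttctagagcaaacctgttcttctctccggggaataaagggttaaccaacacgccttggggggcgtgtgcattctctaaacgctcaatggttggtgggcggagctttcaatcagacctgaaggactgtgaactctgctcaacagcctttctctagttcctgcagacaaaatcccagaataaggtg
Gstm5: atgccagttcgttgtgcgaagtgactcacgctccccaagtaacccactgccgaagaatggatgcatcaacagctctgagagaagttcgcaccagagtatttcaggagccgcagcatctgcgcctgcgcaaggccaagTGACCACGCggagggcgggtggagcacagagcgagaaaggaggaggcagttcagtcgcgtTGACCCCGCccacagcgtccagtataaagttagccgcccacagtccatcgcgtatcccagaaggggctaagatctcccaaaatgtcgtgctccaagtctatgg
The Gstm5 window held 2 matches, starting 113 and 53 bases before the start, and the Gsta4 window held 0. The motif was in 10 of 37 windows of 33 member genes (27%) and in 12.1% of all 33469 windows. A match is a description of letters, and binding was not measured.

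Few of these enzymes differed between lines, and the one with the widest difference was Gsta4, a transferase for the lipid peroxidation product 4-hydroxynonenal. Of 45 probe sets of 40 genes that were bright enough to test, 2 were called in HAD1 against LAD1, 3 in HAD2 against LAD2, 0 in P against NP, 3 in AA against ANA and 0 in sP against sNP. A call is an adjusted p under 0.05 from limma's moderated test, with Benjamini-Hochberg adjustment over all 21185 probe sets tested. The share called over all of these was 4.92% for HAD1 against LAD1, 6.15% for HAD2 against LAD2, 0% for P against NP, 3.94% for AA against ANA and 0% for sP against sNP. The members' shares, 4.44%, 6.67%, 0%, 6.67% and 0% in the same order, were near these. At an unadjusted p under 0.05, limma gave 1273 of all probe sets and 2 of the members in P against NP, and 241 and 0 in sP against sNP.

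The median member difference was -0.02 in HAD1 against LAD1, 0.04 in HAD2 against LAD2, -0.05 in P against NP, -0.01 in AA against ANA and 0.01 in sP against sNP. Between 40 and 45 of the 45 probe sets lay within 0.25 of 0 in every pair. No member separated the lines of a pair, as labelled, without overlap. Over all probe sets, 0.212% did so for HAD1 and LAD1, 2.04% for HAD2 and LAD2, 0% for P and NP, 0.0283% for AA and ANA and 0.00472% for sP and sNP.

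**Figure D1:**
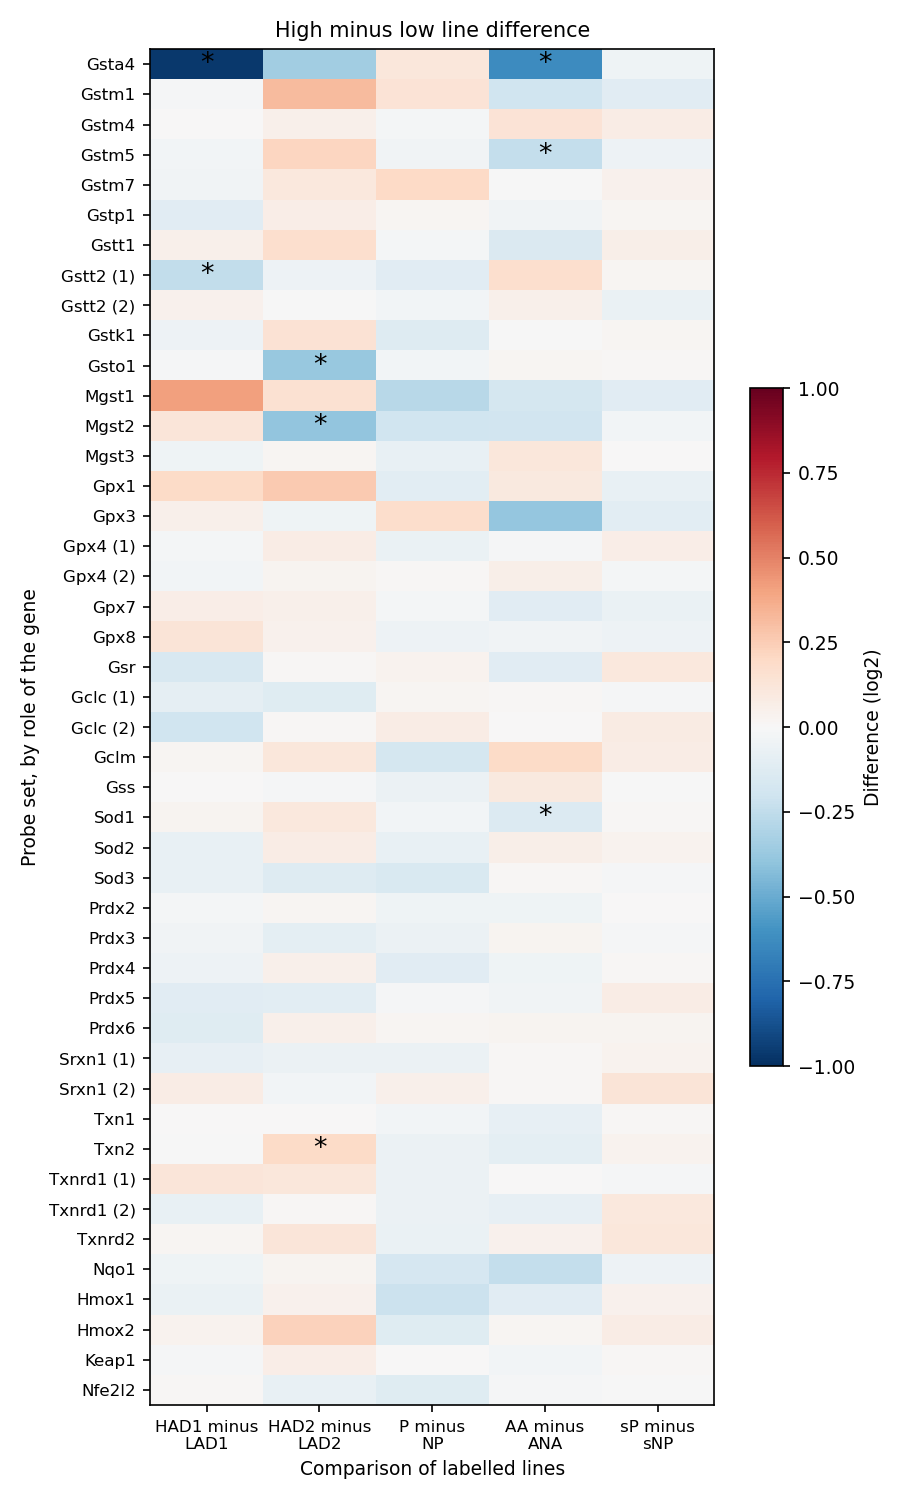
Difference of the high minus the low line (log2, colour) for the 45 tested probe sets (rows, by role) in the 5 pairs (columns); asterisks mark limma calls and numbers in brackets tell probe sets of 1 gene apart. Gsta4 has the darkest cell, -0.96 in HAD1 minus LAD1, and most other cells lie within 0.25 of 0.

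Gsta4 had a lowest, median and highest signal of 11.03, 11.43 and 11.55 in HAD1, against 11.31, 12.41 and 12.70 in LAD1. Every HAD1 array was below every LAD1 array other than LAD1 37, which lay among the HAD1 arrays, and the remaining LAD1 arrays began at 12.20. The difference was -0.96 ± 0.19 (SE), or 1.95-fold lower in HAD1 (limma, adjusted p = 0.000175). It ranged from -1.08 to -0.92 when each array of the pair was left out in turn and was called each time, and without LAD1 37 the lines did not overlap. No rule set LAD1 37 apart, so the lack of overlap without it is a description and not a test. Th, the dopamine-synthesis enzyme, spanned 13.98 to 14.50 in HAD1 and 13.89 to 14.69 in LAD1.

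In HAD2 the Gsta4 signal was 10.97, 11.47 and 11.65 (lowest, median, highest), against 11.38, 11.82 and 11.97 in LAD2. The lines overlapped, and every HAD2 array lay below the LAD2 median. The difference of -0.34 ± 0.20 (SE) was not called in the fit of all arrays (limma, adjusted p = 0.437) and was called when the pair was fitted alone (limma, adjusted p = 0.0223, where 6.37% of all probe sets were called). The HAD1 and HAD2 differences from their low lines were themselves -0.62 apart (limma, adjusted p = 0.252), and this contrast passed with the HAD and LAD arrays fitted alone (limma, adjusted p = 0.0202), a fit added after the data were seen.

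On arrays labelled AA the Gsta4 signal was 11.02, 11.33 and 11.59, against 11.41, 12.01 and 12.57 on arrays labelled ANA. The ANA-labelled arrays reached down into the AA-labelled range, and the SD was 0.179 on arrays labelled AA and 0.396 on arrays labelled ANA (n = 10 each). The difference was -0.63 ± 0.18 (SE), or 1.54-fold lower on arrays labelled AA (limma, adjusted p = 0.0260). The call was lost without AA 9, ANA 8, ANA 18 or ANA 20, with an adjusted p of up to 0.0714 in limma. Of these, ANA 20 is one of the arrays that stood apart.

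Gsta4 was not called in the remaining pairs with all arrays weighted equally. Arrays labelled P had 10.44, 11.36 and 12.001 and arrays labelled NP 10.44, 11.12 and 12.18, and the 95% interval of the difference ran from -0.25 to 0.48. With array weights the P minus NP difference was 0.58 ± 0.19 (SE) and was called (limma, adjusted p = 0.0418). Arrays labelled sP had 11.36, 12.01 and 12.74 and arrays labelled sNP 11.28, 12.40 and 12.53, with an interval from -0.43 to 0.35. These 17 arrays lay in 2 ranges, 8 arrays from 11.28 to 11.72 and 9 arrays from 12.30 to 12.74, and each range held 4 arrays labelled sP. The gap between these ranges, 0.58, was second only to the gap of 0.65 in HAD1 and LAD1 among the 225 combinations of a tested member probe set and a pair, counting only gaps with at least 3 arrays on each side. Both ranges held arrays of both labels, sP 6 to 9 with sNP 1 to 4 below and sP 2 to 5 with sNP 5 to 9 above. In the order of the deposited columns low and high values alternated from sNP 1 to sNP 9, except that sP 5 and sNP 5 were both high. AA 19 (11.57) and ANA 20 (12.57), which precede them and share their distribution set, fit the same alternation. The labels P and NP alternate alike, with NP 5 beside NP 6 at the same place. Whether the labels sP and sNP belong to these values was not tested.

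Averaged over the 5 pairs, Gsta4 was -0.37 ± 0.08 (SE) and was the only 1 of the 45 members called, in this case lower (limma, adjusted p = 0.0033), where 0.977% of all probe sets were called lower. Its difference also depended on the pair (limma moderated F test, adjusted p = 0.0118). Both tests include the pairs P and NP, AA and ANA, and sP and sNP, whose labels were not tested against their values. Gsta4 lies on chromosome 8, and of 11 tested probe sets of its neighbours within 8 gene places, 0 were called in HAD1 against LAD1 by limma, with differences from -0.20 to 0.08. The gene has 1 probe set, so a change in transcript and a sequence difference under its probes cannot be told apart.

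**Figure D2:**
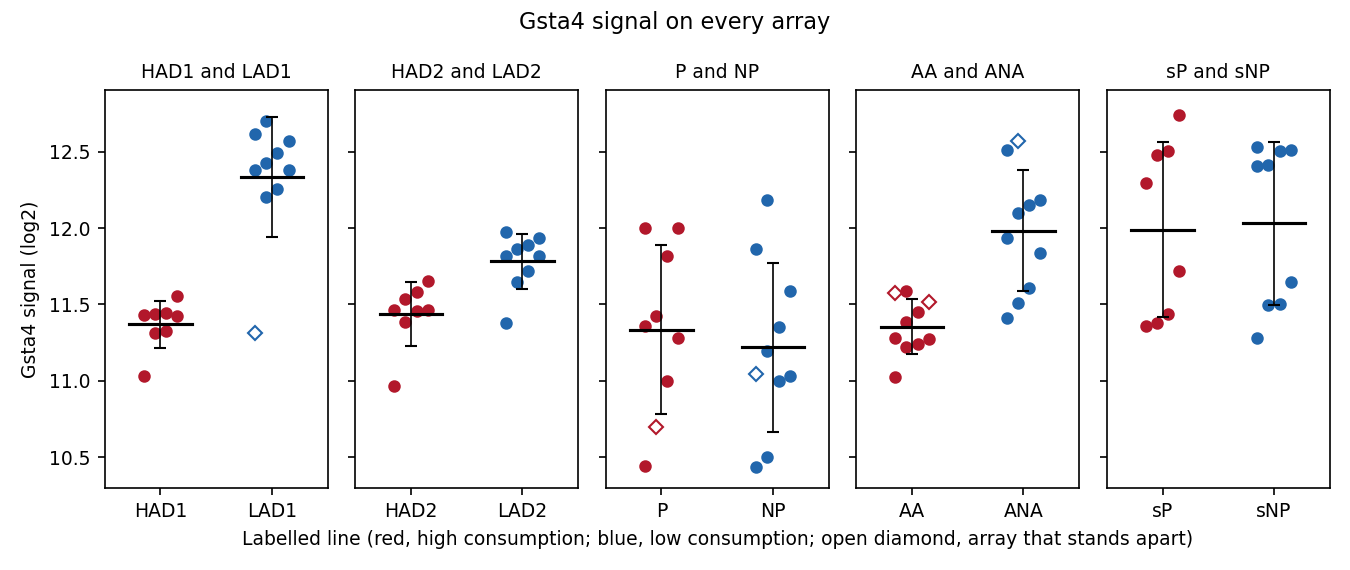
Gsta4 signal (log2, y axis) on every array of the 10 labelled lines, with the high line left of the low line in each pair; bars give the mean and SD, and open diamonds the arrays that stood apart. HAD1 arrays lie at or below 11.55 and LAD1 arrays other than LAD1 37 at or above 12.20, and the sP and sNP arrays fall into 2 ranges.

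The other cytosolic transferases gave calls in single pairs. Gstt2, a theta-class transferase, had 7.43, 7.56 and 7.96 in HAD1, against 7.62, 7.84 and 8.12 in LAD1 (lowest, median, highest). Of the 8 HAD1 arrays, 5 lay below the lowest LAD1 array and the rest within the LAD1 range. The difference was -0.25 ± 0.08 (SE; limma, adjusted p = 0.0413). It was lost without any 1 of HAD1 21, 23, 25, 26, 29 and 30 and LAD1 33, 34, 35, 38 and 40, with an adjusted p of up to 0.109 in limma. The second Gstt2 probe set gave 0.04 (limma, adjusted p = 0.938). Its HAD1 mean was 6.79, below the level of 7.02 that a line mean had to reach for testing, which another line reached.

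Gsto1, an omega-class transferase that also reduces dehydroascorbate, had 12.14, 12.38 and 12.84 in HAD2, against 12.48, 12.83 and 13.02 in LAD2. Of the 8 HAD2 arrays, 5 lay below the lowest LAD2 array and the rest within the LAD2 range. The difference was -0.38 ± 0.11 (SE), or 1.3-fold lower in HAD2 (limma, adjusted p = 0.0148), and without HAD2 8 the call was lost (limma, adjusted p = 0.0538).

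Gstm5, a mu-class transferase, had 12.20, 12.59 and 12.85 on arrays labelled AA, against 12.52, 12.73 and 13.09 on arrays labelled ANA. The ranges overlapped widely. The difference was -0.24 ± 0.07 (SE; limma, adjusted p = 0.0244), and it was lost without any 1 of AA 7, 9, 11 and 17 and ANA 2, 8 and 16 and when the pair was fitted alone (limma, adjusted p = 0.212). Mu-class genes are close copies of each other, so which copy a probe set reads is uncertain. In HAD2 against LAD2 the Gstm5 difference was 0.21 ± 0.07 (SE; limma, adjusted p = 0.0688). It was called when that pair was fitted alone (limma, adjusted p = 0.0296), with the HAD and LAD arrays alone (limma, adjusted p = 0.0119) and with array weights (limma, adjusted p = 0.0310). The Gstm5 difference depended on the pair (limma moderated F test, adjusted p = 0.0164).

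Gstm1, Gstm4, Gstm7, Gstp1, Gstt1 and Gstk1 were called in no pair with all arrays weighted equally. Among them the widest difference was that of Gstm1, 0.32 in HAD2 against LAD2 (limma, adjusted p = 0.240). Gstm2 peaked at a line mean of 5.83, below the floor of 7.02 that a probe set's highest line mean had to reach, and was not tested. The further probe sets Srxn1 (5.15) and Keap1 (6.87) were also below the floor, and Gpx4 (7.22), Gstt2 (7.41) and Srxn1 (7.48) were just above it. The floor applied to the highest line mean, so some tested probe sets lay below it in single pairs. The lowest HAD2 mean was 5.83 among superoxide dismutases and 6.43 among synthesis enzymes. Among peroxiredoxins and Srxn1 the lowest HAD1 mean was 5.78. In such pairs a missing call does not show equal levels.

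Of the membrane-bound transferases, Mgst2, which conjugates glutathione to leukotriene A4, was called. It had 7.01, 7.26 and 7.56 in HAD2, against 7.39, 7.70 and 8.04 in LAD2. All but 2 HAD2 arrays lay below the lowest LAD2 array. The difference was -0.39 ± 0.12 (SE; limma, adjusted p = 0.0284), and it was lost without any 1 of HAD2 3, 7, 8 and 9 and LAD2 13 and 20, with an adjusted p of up to 0.0875 in limma.

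Mgst1, a membrane transferase with peroxidase activity, had 10.74, 11.14 and 11.23 in HAD1, against 10.21, 10.58 and 11.22 in LAD1. All but the top LAD1 arrays lay below the HAD1 median. The difference of 0.41 ± 0.17 (SE) was not called (limma, adjusted p = 0.209), and with the HAD and LAD arrays fitted alone its adjusted p was 0.0324 in limma. Mgst3 gave no call, with differences from -0.07 in P against NP to 0.11 in AA against ANA.

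Sod1, the cytosolic superoxide dismutase, had 13.95, 14.05 and 14.17 on arrays labelled AA, against 14.09, 14.21 and 14.25 on arrays labelled ANA. Of the 10 AA-labelled arrays, 6 lay below the lowest ANA-labelled one, over a narrow range. The difference was -0.14 ± 0.03 (SE; limma, adjusted p = 0.0078), or 1.10-fold lower, and its adjusted p was 0.0684 when the pair was fitted alone. In HAD2 against LAD2 the Sod1 difference was 0.11 ± 0.04 (SE; limma, adjusted p = 0.0749). Its difference depended on the pair (limma moderated F test, adjusted p = 0.0043). The mitochondrial Sod2 and the extracellular Sod3 were called in no pair and spanned -0.15 to 0.08.

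Txn2, the mitochondrial thioredoxin, was the only member called higher in a high-consumption line with all arrays weighted equally. It had 10.88, 10.9997 and 11.08 in HAD2, against 10.62, 10.84 and 10.93 in LAD2. Of the 8 HAD2 arrays, 7 exceeded the highest LAD2 array. The difference was 0.19 ± 0.05 (SE), or 1.14-fold (limma, adjusted p = 0.0038), and it was called without each array in turn. On arrays labelled AA against ANA it was -0.10 ± 0.04 (SE; limma, adjusted p = 0.283), and the difference depended on the pair (limma moderated F test, adjusted p = 0.0076). Txn1 and the reductases Txnrd1 and Txnrd2 were not called and spanned -0.08 to 0.12.

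**Figure D3:**
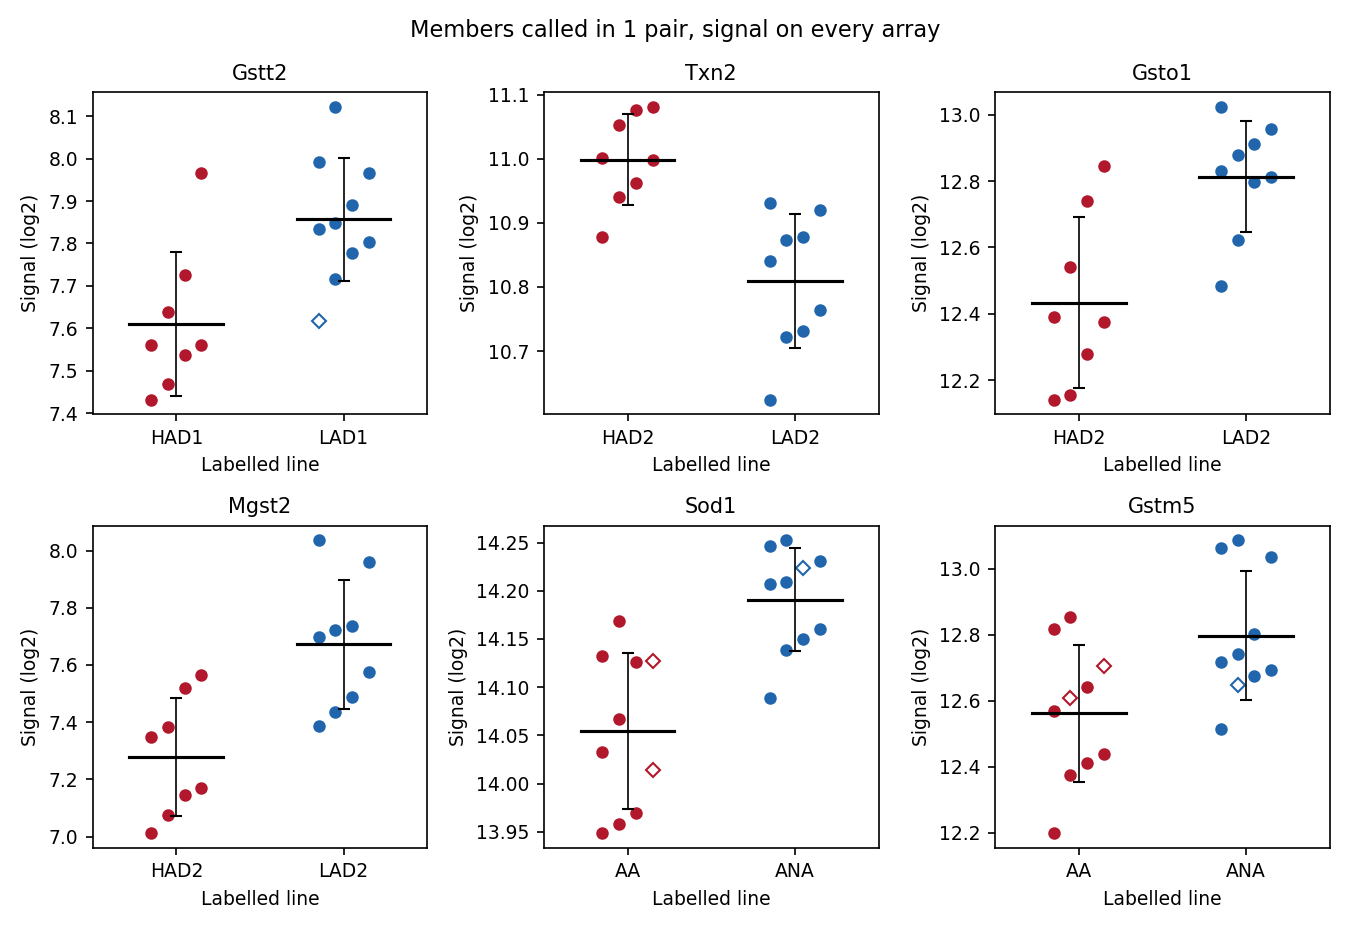
Signal (log2, y axis) on every array for the 6 members called in 1 pair, with the high line in red at the left and the low line in blue; bars give the mean and SD, and open diamonds the arrays that stood apart. The lines overlap in every panel, and Txn2 alone is higher in the high line.

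Among the genes near the called members, 1 neighbouring probe set was called of 10 near Gsto1, of 9 near Txn2, of 15 near Mgst2 and of 9 near Sod1, where 6.15% of all probe sets were called in HAD2 against LAD2 and 3.94% in AA against ANA. These were Sfr1 beside Gsto1 (0.28), Ift27 beside Txn2 (0.58) and Ndufc1 beside Mgst2 (-0.18) in HAD2 against LAD2, and Hunk beside Sod1 (-0.43) in AA against ANA. The other Hunk probe set gave -0.08 in AA against ANA and was not called (limma, adjusted p = 0.744). Neighbours of Gstt2 and Gstm5 gave 0 calls by limma of 10 and 16 probe sets.

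The peroxidases, the synthesis enzymes, the peroxiredoxins, the quinone and heme enzymes and the Nrf2 pair gave no call with all arrays weighted equally. Gpx1, the cytosolic glutathione peroxidase, was 0.19 ± 0.10 in HAD1 against LAD1 and 0.26 ± 0.10 in HAD2 against LAD2 (SE; limma, adjusted p = 0.369 and 0.115). The average of both HAD and LAD pairs, added after the data were seen, was 0.22 (limma, adjusted p = 0.0290), and 2 members, Gpx1 and Gsta4, were called in it, where 6.24% of all probe sets were. Gclc, the catalytic subunit of the rate-limiting enzyme of glutathione synthesis, spanned -0.20 to 0.08 over both probe sets and all pairs. Gclm, its modifier subunit, spanned -0.18 in P against NP to 0.19 in AA against ANA. Gss, which completes glutathione, spanned -0.06 to 0.09, and Gsr, which reduces its oxidised form, -0.16 to 0.10. The peroxidases Gpx4, Gpx7 and Gpx8 together spanned -0.11 to 0.13, and Gpx3 spanned -0.39 in AA against ANA to 0.17 in P against NP. The peroxiredoxins and Srxn1, which repairs them, spanned -0.12 to 0.13. Nqo1, a quinone reductase, was -0.24 ± 0.10 (SE) on arrays labelled AA against ANA (limma, adjusted p = 0.185), and -0.30 without the arrays that stood apart (limma, adjusted p = 0.0197, where 5.5% of all probe sets were called). The heme oxygenases Hmox1 and Hmox2 spanned -0.22 to 0.04 and -0.12 to 0.23. Nfe2l2 and Keap1 themselves spanned -0.12 to 0.07.

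Weighting each array by its agreement with its line made further calls. In P against NP 6 members were called, where 7.94% of all probe sets were. They were Gpx3 (0.84 ± 0.20), Gsta4 (0.58 ± 0.19), Gstm1 (0.34 ± 0.11) and Gstm7 (0.33 ± 0.11), which were higher, and Gclm (-0.30 ± 0.09) and 1 Srxn1 probe set (-0.25 ± 0.08), which were lower (SE; limma, adjusted p from 0.0032 to 0.0488). Without weights the same P against NP comparison gave 0.17 for Gpx3 and 0.12 for Gsta4. On these arrays the rank correlation (Spearman's rho) with Th was 0.68 to 0.85 for the 4 higher members. It was -0.54 for Gclm and -0.65 for this Srxn1 probe set. The part of Th in these weighted calls was not tested. In HAD2 against LAD2 Gstm1 (0.37), Gstk1 (0.15) and Gstm5 (0.21) were added (limma, adjusted p from 0.0172 to 0.0341), where 8.77% of all probe sets were called. In AA against ANA Gclm (0.25), Gstm1 (-0.29) and Nqo1 (-0.27) were added (limma, adjusted p from 0.0061 to 0.0475), where 9.19% were.

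Over the 5 pairs as labelled, 5 of the 45 members had a difference that depended on the pair (Gsta4, Gstm5, Gstt2, Sod1 and Txn2), against 8.26% of all probe sets. The part that the untested labels of P and NP, AA and ANA, and sP and sNP play in it is not known. Between HAD1 with LAD1 and HAD2 with LAD2, 0 members passed this test by limma, against 4.91% of all probe sets, and Mgst2 came nearest with 0.52 ± 0.17 (SE; limma, adjusted p = 0.0540). With the 35 HAD and LAD arrays fitted alone, a setting added after the data were seen, limma called 3 members in HAD1 against LAD1 (5.41% of all probe sets), 4 in HAD2 against LAD2 (7.03%) and 2 between these pairs, Gsta4 and Mgst2 (5.67%).

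Among arrays labelled P and NP, part of the members moved with Th, as did part of all probe sets. Th was 9.12 on P 10, 8.23 on NP 8 and 11.38 to 14.95 on the remaining 17 arrays. Of 45 relations tested with 100000 permutations each, 6 passed by both Pearson's r and Spearman's rho after Benjamini-Hochberg adjustment over all tested probe sets. Over all 21184 tested probe sets other than Th, 12.1% passed by both, against 13.3% of the members. By rho, whatever r gave, 23 of the 45 members (51.1%) passed, 13 of them positive and 10 negative, against 38.8% of all probe sets. The relation was chosen after the values were seen.

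Gpx3, the secreted glutathione peroxidase, had r = 0.73 and rho = 0.85 over 19 arrays (permutation test, adjusted p = 0.00718 and 0.000383), and r = 0.88 without P 10 and NP 8. Within arrays labelled P r was 0.71 and within those labelled NP 0.76. Gpx3 itself had 8.33, 9.72 and 10.38 on arrays labelled P, against 8.29, 9.24 and 11.13 on arrays labelled NP, with a difference of 0.17 ± 0.23 (SE; limma, adjusted p = 0.988) that was 0.84 ± 0.20 with array weights (SE; limma, adjusted p = 0.0032). Gsta4 had r = 0.65 and rho = 0.74, and r = 0.77 without those 2 arrays. Mgst1, Gstm5, Gstk1 and Txn1 passed by both as well. Nfe2l2 passed by r alone, with r = 0.65, which fell to 0.29 without the 2 arrays and so rests on them. The members that passed by rank in the negative direction were Gsto1, Mgst3, Prdx2, Prdx3, Prdx5, Sod2, Hmox2, both Srxn1 probe sets and 1 of Txnrd1, with rho from -0.68 to -0.57. Within arrays labelled NP their r was negative, from -0.82 to -0.68. Within arrays labelled P it was positive for each, from 0.24 to 0.51, with P 10, the lowest of them in Th, included. Without P 10 and NP 8, r over the remaining arrays of both labels was negative for each, from -0.76 to -0.57. The relation within arrays labelled P without P 10 was not tested. For Gsto1 rho was -0.68 (permutation test, adjusted p = 0.0120), and r was -0.39 over all 19 arrays (permutation test, adjusted p = 0.238) and -0.68 without P 10 and NP 8. The part that the dopamine-neuron content of the tissue plays in these relations was not tested.

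**Figure D4:**
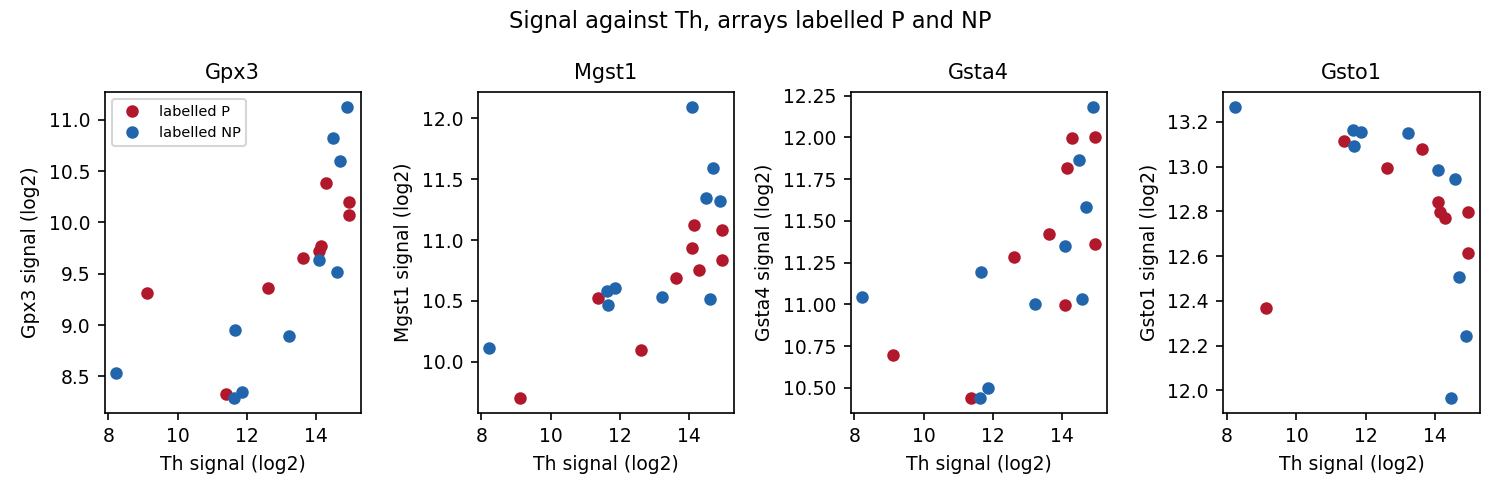
Signal of Gpx3, Mgst1, Gsta4 and Gsto1 (log2, y axes) against Th (log2, x axes) on the 19 arrays labelled P (red) and NP (blue). Gpx3, Mgst1 and Gsta4 are higher on arrays with more Th, Gsto1 is lower on most of them, and the 2 arrays with the least Th are P 10 and NP 8.

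The other genes of the same chemistry were read from 5 lists, of further transferases, glutathione supply and use, peroxide and thiol repair, Nrf2 partners and targets, and NADPH supply. Of 103 probe sets of 84 tested genes, 3 rose and 5 fell in HAD1 against LAD1, 6 rose and 5 fell in HAD2 against LAD2, and 3 rose and 4 fell in AA against ANA (limma calls). These are 7.77%, 10.7% and 6.80% of the 103, where 4.92%, 6.15% and 3.94% of all probe sets were called. None was called in P against NP or sP against sNP, and the NADPH list had no call in any pair. Of these 26 calls, 19 were kept without each array in turn.

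In the HAD and LAD lines 3 of these genes were called with opposite signs, on 2.91% of the 103 probe sets, against 0.647% of all probe sets. Txndc5, a disulfide isomerase of the endoplasmic reticulum, was -0.19 in HAD1 against LAD1 and 0.40 in HAD2 against LAD2. Ephx1, the microsomal epoxide hydrolase, was -0.40 and 0.48, and its HAD2 arrays (8.01 to 8.48) also lay wholly above its LAD2 arrays (7.49 to 7.86). Rbx1, a subunit of the ubiquitin ligase that Keap1 recruits, was -0.24 and 0.50 on 1 probe set. Its HAD2 arrays (12.24 to 12.64) likewise lay wholly above its LAD2 arrays (11.61 to 12.22), where 2.04% of all probe sets separated these lines. The HAD1 call of Rbx1 was lost without any 1 of HAD1 21, 26, 27, 29 and 30 and LAD1 32, 35, 36, 38 and 39, with an adjusted p of up to 0.160 in limma. The other Rbx1 probe set gave -0.10 and 0.04 and was not called (limma, adjusted p = 0.308 and 0.862). The difference between the pairs was itself called for the probe sets called in both, at -0.59 for Txndc5, -0.88 for Ephx1 and -0.74 for Rbx1 (limma, adjusted p of 6.59e-08 or lower).

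Further calls in HAD1 against LAD1 were in thiol repair, glutathione use and Nrf2-related genes. Glrx3, a glutaredoxin of iron and sulfur handling, was 0.49 higher in HAD1 (12.69 to 13.13) than in LAD1 (12.12 to 12.64), without overlap. Ccs, the copper chaperone that loads Sod1, was -0.28 (limma, adjusted p = 0.000432), while Sod1 was 0.03 in that pair. Nfe2l1, a relative of Nrf2, was 0.48 on 1 probe set, while its other probe sets gave -0.08 and -0.11. Txnip, which binds thioredoxin, was 0.42 and Txndc17, a thioredoxin relative, was -0.25. The Txnip call was lost without any 1 of HAD1 22, 26, 27, 29 and 30 and LAD1 31, 32, 33, 35, 36, 38, 39 and 40, with an adjusted p of up to 0.112 in limma. The Txndc17 call was lost without HAD1 22, 23, 25 or 30 or LAD1 32, 33 or 40, with one of up to 0.0851.

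In HAD2 against LAD2, the biliverdin reductases Blvra and Blvrb were 0.30 and -0.24. Gstcd, a protein with a transferase-like domain, was -0.32, and Txndc12, a thioredoxin-like protein of the endoplasmic reticulum, was -0.15. Ggact, which breaks down gamma-glutamyl conjugates, was -0.25 on 1 probe set, with HAD2 arrays (11.52 to 11.73) wholly below LAD2 arrays (11.80 to 11.96), and 0.19 on the other. On that other probe set HAD2 arrays (6.02 to 6.64) and LAD2 arrays (5.82 to 6.54) lay below the floor of 7.02. Slc1a1, a glutamate and cysteine transporter, was 0.30 on 1 probe set and -0.05 on the other, and this call was lost without HAD2 5, LAD2 19 or LAD2 20 (limma, adjusted p of up to 0.0817).

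On arrays labelled AA against ANA 3 of the called genes had a second probe set that was not called. Ggact was 0.82 and Slc1a1 0.26 on the probe sets that were not called in HAD2 against LAD2, and -0.07 for each on the probe sets that were. The Ggact probe set at 0.82 was dim, with ANA-labelled arrays at 5.99 to 6.66, below the floor of 7.02, and AA-labelled arrays at 6.27 to 7.99. Nqo2, a quinone reductase related to Nqo1, was 0.55, and its call was lost without AA 1 or ANA 12 (limma, adjusted p of up to 0.0917). Tmx4, a membrane thioredoxin relative, was -0.77 with AA 7, an array at 9.89 where the median of arrays labelled AA was 13.50, and -0.40 without it (limma, adjusted p = 2.64e-06). The other Tmx4 probe set gave -0.22 (limma, adjusted p = 0.523). Txndc5 was -0.18, and Ugdh, which makes the sugar donor of glucuronidation, was -0.16. Esd, an esterase that releases glutathione from its formyl conjugate, was -0.17, and its call was lost without any 1 of AA 1, 3, 11 and 15 and ANA 2, 6, 8, 14, 18 and 20, with -0.10 without AA 1 (limma, adjusted p = 0.234).

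Lists of markers of cell types gave calls for some types. Over all probe sets, 4.92% were called in HAD1 against LAD1, 6.15% in HAD2 against LAD2 and 3.94% in AA against ANA. Astrocyte, dopamine-neuron, neuron, meningeal fibroblast and blood markers had 0 calls in any pair by limma. Of 9 oligodendrocyte markers 1 was higher in HAD1 and 1 lower in HAD2, and of 9 microglia markers 1 was lower in HAD1 and 1 higher in HAD2. Of 10 markers of endothelium and pericytes, 1 was higher and 1 lower in HAD1, 2 were higher and 1 lower in HAD2, and 1 was higher on arrays labelled AA. In these 3 pairs the share of that list called was above the share over all probe sets. The mean of the meningeal fibroblast list was 0.24 higher in HAD2 (7.81 to 8.70) than in LAD2 (7.67 to 8.05), and it was -0.08 in HAD1 against LAD1, -0.10 in P against NP, -0.17 in AA against ANA and -0.24 in sP against sNP. The mean of the 3 blood markers on the array was -0.26 in sP against sNP, -0.14 in AA against ANA and 0.14 in P against NP, and the means of the remaining lists lay between -0.10 and 0.11 in every pair. The part of these shifts in the members' results was not tested.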

How the data were processed

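Ventral tegmental area RNA of 91 rats was measured on 1 array per animal. Per the submitters' processing notes, the authors used RMA to make the deposited log2 signal of each of the 31099 probe sets. RMA corrects background, normalizes quantiles and summarises probes. Its version and the arrays normalized together were not stated, and the number of arrays limits the precision. The annotation gave 1 symbol to 20826 probe sets, several to 436 and none to 9780, besides 57 control probe sets, and 0 value columns lacked a sample.

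Samples were grouped by line from their titles. A probe set was tested if its highest line mean reached the 40th percentile of all values (7.02). One limma 3.58.1 fit (lmFit, eBayes; R 4.3.3) of 10 line means over all arrays gave 81 residual degrees of freedom. All p-values were 2-sided and adjusted by Benjamini and Hochberg's method over the probe sets tested, per contrast. The moderated F test had 4 numerator degrees of freedom. Distributions of arrays were clustered into 5 sets. The fit was tested on simulated data. Named with values were members called in any pair or in the average, and up to 4 called genes per further list and pair by adjusted p. Other members are given by range or grouped range, and where a further setting called them. Members, lists and tests were chosen with earlier results of these data known. Correlations and figures used scipy 1.17.1 and matplotlib 3.10.9. Alternatives were other floors, quantile normalization, median centring, pairs fitted alone, an intensity trend, array weights, 1 probe set per gene, a replicate block, and arrays left out.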

Additional observations from a re-analysis of the deposited data

Results flagged for a closer look

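Among 70 groups made of a called member and a line, 5 held an array whose distance from its nearest neighbour was large for the range of its line, and chance gives about 1 in 20 groups. Gsta4 was low on HAD1 22 (11.03), on LAD1 37 (11.31) and on HAD2 5 (10.97). Gstm5 was 11.67 on LAD2 20, and Gsto1 was 12.83 on the array labelled sNP 4.

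The difference between the high and the low line, as labelled, depended on the pair for 5 members by limma's moderated F test. The adjusted p was 0.0118 for Gsta4, 0.0164 for Gstm5, 0.0461 for Gstt2, 0.0043 for Sod1 and 0.0076 for Txn2.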

How the results depend on the processing

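The counts of called members that moved by over 1.5 times were these. In HAD1 against LAD1, with 2 calls, no filter and the pair fitted alone each gave 1. In HAD2 against LAD2, with 3, array weights gave 6 and the pair fitted alone 5. In P against NP, with 0, array weights gave 6. In AA against ANA, with 3, array weights gave 6 and the pair fitted alone 1. In the average, with 1, array weights gave 3 and the average of both HAD and LAD pairs 2. For dependence on the pair, with 5, array weights gave 10. Between the HAD1 and HAD2 pairs, with 0, array weights gave 4, leaving out the arrays that stood apart 2, and the HAD and LAD arrays alone 2. Of these, the last and the average of both HAD and LAD pairs were chosen after seeing the data. The cause was not tested.

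Leaving out 1 array at a time gave 1 to 2 calls in HAD1 against LAD1, 1 to 4 in HAD2 against LAD2, 0 to 0 in P against NP and in sP against sNP, 1 to 4 in AA against ANA, 1 to 1 in the average, 4 to 5 for dependence on the pair and 0 to 1 between the HAD pairs. For single members the other settings kept 119 of the values on their side of the threshold and lost 6, and none reversed. Dependence of Gstt2 on the pair was lost without 40 of the 91 arrays.

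Over all probe sets, array weights called 1698 in HAD1 against LAD1 (otherwise 1042), 1682 in P against NP (0), 1947 in AA against ANA (835), 6 in sP against sNP (0), 1570 in the average (455), 1671 between the HAD pairs (1040) and 5106 for dependence on the pair (1749). Without the arrays that stood apart the count was 1722 in HAD1 against LAD1 and 800 in the average. The average of both HAD and LAD pairs gave 1323, and AA against ANA fitted alone 381. With 1 probe set per gene 11082 were tested, and 427, 605 and 326 were called in HAD1 against LAD1, HAD2 against LAD2 and AA against ANA, 155 in the average, 459 between the HAD pairs and 701 for dependence on the pair.

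With the animal number as a replicate block, 0 members were called in P against NP and 0 in sP against sNP, as without it. Same-numbered animals correlated from -0.69 to 0.67 in P and NP, with a median of 0.23 and 6 of 9 over 0.1. In sP and sNP they correlated from -0.40 to 0.30, with a median of -0.16 and 1 of 8 over 0.1. These values do not settle whether the numbers mark pairs. No paired analysis was possible for the remaining pairs because the lines share fewer than 2 numbers.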
